A study of Homo sapiens with 72 samples.

Results

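The mitochondrial ribosomal protein genes were chosen by name. All protein-coding genes whose GENCODE symbol is MRPL or MRPS followed by a number, with or without a final A, B or C, were matched by Ensembl identifier, which gave 78 of the 60371 genes listed in each library. Of these, 49 carry an MRPL name and 29 an MRPS name. All 78 passed the filter on low counts in every comparison. The libraries came from U2OS cells, a human osteosarcoma line, after 12 h with DMSO (18 wells) or with 1 of 6 compounds, triptolide, homoharringtonine, nilotinib, pyrazolanthrone, MK-2206 and miglitol, each at 100 nM, 1000 nM and 10000 nM in 3 wells. These doses are those of the labels. The study's results text gives the same doses for triptolide and homoharringtonine, whereas its methods text gives another value for the middle dose. The order and spacing of doses and the dose trends rest on the value of the labels. Triptolide is known as an inhibitor of transcription that acts on the helicase subunit XPB of TFIIH. Homoharringtonine is known as an inhibitor of cytosolic translation elongation. Nilotinib and MK-2206 are kinase inhibitors (of ABL and of AKT), pyrazolanthrone inhibits JNK, and miglitol inhibits intestinal alpha-glucosidases. All wells hold 1 cell line, and the labels do not say that wells came from separate cultures, so that p-values measure the spread between wells, which may be technical.

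The mitochondrial ribosome translates the mRNAs that mitochondrial DNA encodes, which all specify subunits of the respiratory chain or of ATP synthase. Its RNA comes from mitochondrial DNA, whereas all of its proteins are encoded in the nucleus, translated by cytosolic ribosomes and imported. Some of the proteins descend from bacterial ribosomal proteins and others were added during the evolution of mitochondria. A balanced supply from many unlinked nuclear genes is therefore part of how the particle is built. Several names do not match the structure. MRPS30 and MRPS18A sit in the large subunit, and MRPS36 is a component of the 2-oxoglutarate dehydrogenase complex. By structure, 51 members belonged to the large subunit, 26 to the small subunit and 1, MRPS36, to neither. By origin, 46 had a bacterial counterpart, 30 had none, and MRPS18A and MRPS18B, paralogs of MRPS18C, were kept in neither class.

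The 78 genes lay on 21 chromosomes. They were compact, with a median span of 11940 bp against 27621 bp for 19550 protein-coding genes in the files, a median canonical transcript of 1242 bases against 2910, and a median of 5 exons against 8. Their median transcript GC content was 50.03%, and that of all coding genes was 50.08%. A coding gene on the opposite strand started within 1000 bp of the start of 27 members (34.62%), against 13.37% of 20046 coding genes. One such pair is made of 2 members, MRPL46 and MRPS11, whose GENCODE starts lie 63 bp apart on chromosome 15.

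Promoter sequences from RefSeq (build GRCh38.p14), 250 bases before to 50 bases after the first listed start, were found for 69 of the 78 members. The promoters shown are those of the genes with the largest falls and the largest rise with triptolide at 10000 nM, MRPL44, MRPS31 and MRPL33, and of the divergent pair, which was picked after its values were seen. Capitals mark the letters CCGGAAG, which ETS factors such as GABP bind, AAGATGGCG, which YY1 binds, on either strand.
MRPL44, chr2:223957213-223957512, plus strand
MRPL44: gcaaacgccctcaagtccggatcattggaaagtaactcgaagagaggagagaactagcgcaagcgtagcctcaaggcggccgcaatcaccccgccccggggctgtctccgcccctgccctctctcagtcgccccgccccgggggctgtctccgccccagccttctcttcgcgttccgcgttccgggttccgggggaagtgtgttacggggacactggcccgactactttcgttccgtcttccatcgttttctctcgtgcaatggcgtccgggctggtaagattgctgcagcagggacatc
MRPS31, chr13:40771141-40771440, minus strand
MRPS31: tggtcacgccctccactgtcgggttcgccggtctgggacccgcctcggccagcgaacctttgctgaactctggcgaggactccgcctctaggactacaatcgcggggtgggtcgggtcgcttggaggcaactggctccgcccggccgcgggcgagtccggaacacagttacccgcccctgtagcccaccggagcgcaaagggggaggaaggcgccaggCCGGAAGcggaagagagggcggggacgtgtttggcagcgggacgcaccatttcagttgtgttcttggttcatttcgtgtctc
MRPL33, chr2:27771469-27771768, plus strand
MRPL33: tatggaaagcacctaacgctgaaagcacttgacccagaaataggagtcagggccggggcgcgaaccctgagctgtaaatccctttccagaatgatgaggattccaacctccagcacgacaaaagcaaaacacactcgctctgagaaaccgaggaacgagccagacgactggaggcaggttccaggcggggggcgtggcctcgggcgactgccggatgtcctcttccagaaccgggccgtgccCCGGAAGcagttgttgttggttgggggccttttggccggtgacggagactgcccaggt
MRPL46, chr15:88467339-88467638, minus strand
MRPL46: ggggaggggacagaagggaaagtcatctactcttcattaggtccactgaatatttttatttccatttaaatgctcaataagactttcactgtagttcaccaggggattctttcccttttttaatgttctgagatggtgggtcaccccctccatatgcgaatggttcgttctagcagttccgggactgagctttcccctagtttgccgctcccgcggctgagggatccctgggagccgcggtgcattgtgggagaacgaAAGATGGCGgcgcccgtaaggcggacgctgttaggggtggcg
MRPS11, chr15:88467458-88467757, plus strand
MRPS11: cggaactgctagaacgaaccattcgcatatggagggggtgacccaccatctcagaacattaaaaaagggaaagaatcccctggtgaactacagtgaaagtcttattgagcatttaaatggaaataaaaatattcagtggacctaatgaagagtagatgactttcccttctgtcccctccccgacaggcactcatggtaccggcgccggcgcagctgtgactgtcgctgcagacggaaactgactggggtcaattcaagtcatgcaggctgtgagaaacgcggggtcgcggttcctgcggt
MRPS31 and MRPL33 held CCGGAAG, and MRPL46 held AAGATGGCG. MRPL44 and MRPS11 held neither of these letters in these windows. The windows of MRPL46 and MRPS11 share 181 bases, read on opposite strands. The MRPS11 window begins at 88467458, past the GENCODE start of that gene at 88467453. It does not cover the stretch before this start, where the AAGATGGCG of MRPL46 lies. These windows therefore do not show whether the pair differs in these letters.

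Counted on both strands, CCGGAAG was in 29 of the 69 promoters (42%), against 10.7% of 27305 RefSeq promoters of the same length. AAGATGGCG was in 13 (18.8%) against 1.85%, and the palindromic NRF1 motif was in 1, that of MRPL17 (1.45%), against 1.36%. The SP1 letters GGGCGG were in 42 (60.9%) against 44.6%, and TATAAA was in 2 (2.9%) against 12%. A match of letters is a description and not a binding site.

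Depth was taken as the sum of expected counts per well. It ran from 70767 to 68296300, with 3 libraries under 10000000: triptolide 100 nM replicate 2 (70767 counts, of which 244 fell on the 78 genes), DMSO replicate 10 (460014) and triptolide 1000 nM replicate 1 (9628360). The cell line was checked on its markers. Among 10 osteosarcoma and mesenchymal markers, SPARC (median 2137 TPM over the DMSO wells), VIM (1868) and COL1A1 (452) were high, whereas COL1A2 (0.07) was near 0 and TWIST1 was listed at 0 in all DMSO wells. Between these lay CDH11 (12.5), SPP1 (12.0), RUNX2 (3.805), ALPL (3.79) and BGLAP (0.425). Among 8 markers of other cell types, the highest median was that of EPCAM (2.38 TPM), above that of BGLAP, and ALB, CD3E and HBB had a median of 0.

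In DMSO the members spanned a wide range of levels. In TPM, the share of transcripts in a library, which corrects for gene length, the median member had a mean level of 84.0 and the quartiles were 51.8 and 119. The highest level was that of MRPL51, a large subunit protein without bacterial counterpart, at 413 ± 47.3 TPM (SD, n = 18). MRPS24, the counterpart of bacterial uS3 in the small subunit, followed at 377 ± 35.6, and their wells overlapped. MRPS34 (256 ± 34.8) and MRPS16 (223 ± 33.8), both of the small subunit, were next and overlapped each other. The lowest level was that of MRPL50, a large subunit protein, at 9.73 ± 3.34 TPM. Close to it were MRPS31 of the small subunit at 10.2 ± 2.62, MRPL1, which forms the stalk beside the exit site, at 14.7 ± 6.59, and MRPL57 at 17.5 ± 1.78. MRPL50 and MRPS31 did not differ beyond their spread. The level of MRPS31 is uncertain, since 4 pseudogene entries of its name held 30.8% of the counts given to them and the gene. Of the 78 members, 77 had a mean level above 10 TPM and 29 above 100. For comparison, the median of 87 cytosolic ribosomal protein genes was 2057 TPM and that of the 13 mitochondrially encoded mRNAs was 272 TPM.

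The classes overlapped broadly. The median of mean levels was 86.2 TPM for the large subunit and 68.7 TPM for the small subunit. It was 90.7 TPM for members with a bacterial counterpart and 61.9 TPM for those without. The spread between DMSO wells depended on the gene. The coefficient of variation of TPM ran from 4.87% for MRPS15 to 63.1% for MRPS36, with a median of 14.9%. It was larger for genes with AU-rich transcripts. The 26 members below 45% GC had a median coefficient of 24.0%, and the other 52 had 13.7%. Across the 78 genes, Spearman's rho with GC content was -0.39 and Pearson's r -0.45, over the same 18 wells. These wells include the shallow replicate 10. Of the lowest members named above, MRPL50, MRPS31 and MRPL1 are below 45% GC and MRPL57 is not. The parts of level and of counting error in this spread were not tested.

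**Figure D1:**
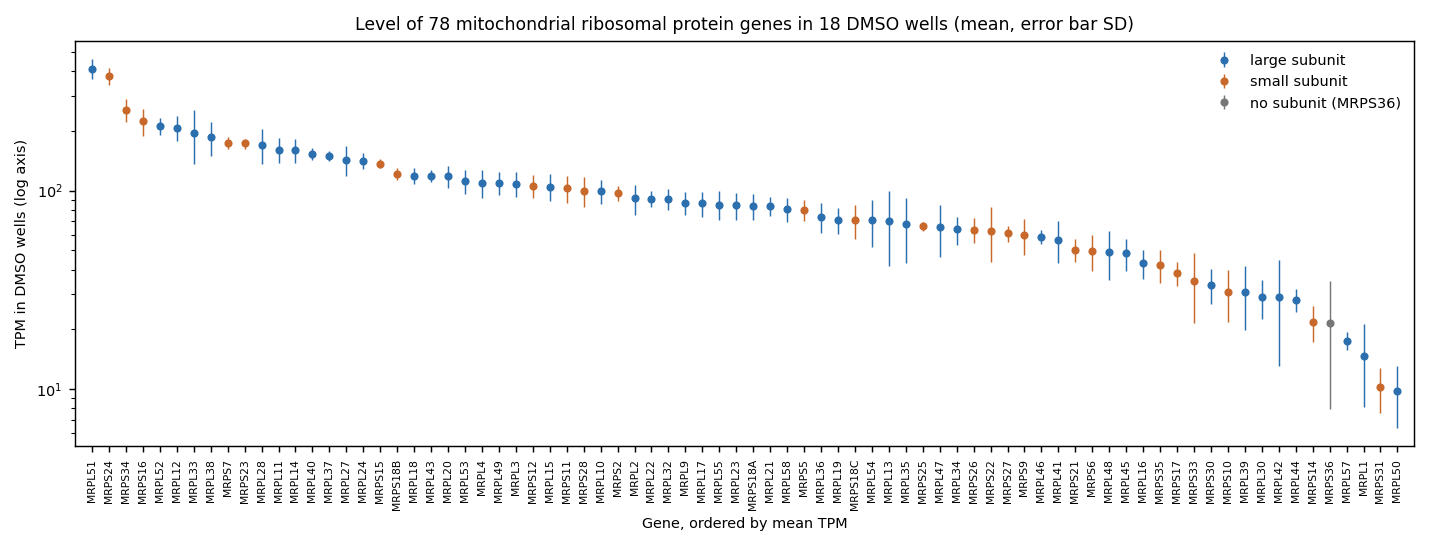
Mean TPM with SD (error bars) over 18 DMSO wells, on a log axis, for each of the 78 genes in order of level and coloured by subunit. Levels run from 413 TPM for MRPL51 to 9.73 TPM for MRPL50, large and small subunit genes are mixed along the order, and error bars widen for some genes of low GC content such as MRPL33, MRPL42 and MRPS36.

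With triptolide, the summed level of the 78 genes fell to a similar value at each dose. The sum ran from 7050 to 8136 TPM in the DMSO wells, with a median of 7751. It was between 4965 and 5175 TPM at 100 nM, between 4918 and 5324 at 1000 nM and between 5041 and 5110 at 10000 nM, so that no treated well reached the DMSO range, and the group means were 65.9%, 66.4% and 65.7% of the DMSO mean. In the same wells the 87 cytosolic ribosomal protein genes summed to between 218781 and 269205 TPM, against 158237 to 210583 in DMSO. The counts on the 13 mitochondrially encoded mRNAs were 0.518 to 1.15% of the library, against 0.138 to 0.367% in DMSO. All values in bulk libraries are shares of a total, so that less RNA of these genes per cell and more RNA of others cannot be told apart.

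With homoharringtonine, the sum stayed within the DMSO range at 100 nM (7818 to 7927 TPM). It was 7006 to 7295 TPM at 1000 nM and 6890 to 6958 at 10000 nM, where all 3 wells lay below every DMSO well and the mean was 89.7% of the DMSO mean. The sum for cytosolic ribosomal protein genes moved the same way, to between 155354 and 162113 TPM at 10000 nM. MK-2206 at 10000 nM gave 7174 to 7377 TPM (94.3% of the DMSO mean), within the DMSO range. The means of the other compounds and doses lay between 100.05% and 105.85% of the DMSO mean.

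**Figure D2:**
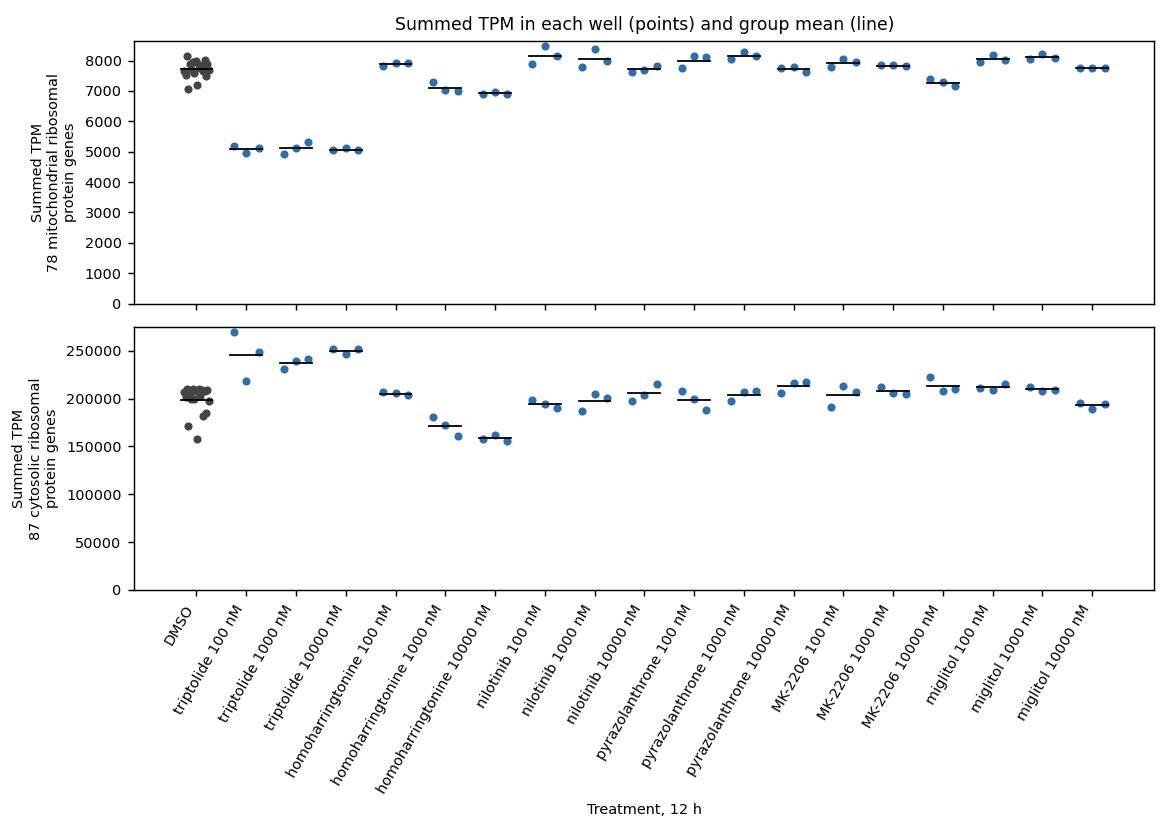
Summed TPM per well (points) and group mean (line) of the 78 mitochondrial ribosomal protein genes (upper panel) and of 87 cytosolic ribosomal protein genes (lower panel) for DMSO and each compound and dose after 12 h; both axes start at 0. Triptolide wells sit between 4918 and 5324 TPM in the upper panel and above all DMSO wells in the lower panel, and homoharringtonine wells at 10000 nM sit at the lower end of both.

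The sum hides opposite movements of single genes. At 10000 nM of triptolide, 37 of the 78 members (47.4%) were lower and 21 (26.9%) were higher than in DMSO at an adjusted p under 0.05 (edgeR's quasi-likelihood test over all genes, Benjamini-Hochberg adjustment). Over all 18536 genes tested, 39.7% were lower and 32.2% higher. With a fold change of more than 2 required as well, 26 members (33.3%) were lower, against 30.2% of all genes, and 6 (7.69%) were higher, against 16.2%. The median log2 fold change of the members was -0.30, and that of all genes was -0.17. This median kept its sign, and the higher calls depended on the scaling: with library sizes alone 10 members were higher and 54 lower, with DESeq2 28 and 35, and when libraries were scaled to the mitochondrially encoded mRNAs, 0 were higher and 78 lower (the median of all genes was then -0.70, 0.00 and -2.92). The changes of single members below are on the scaling by trimmed means (TMM) over the whole library, and their values are library shares on that scale (normalised CPM), which compare wells and not genes.

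The falls ran across both subunits. MRPL44 (ENSG00000135900, chr2:223957463-223967714, plus strand, GRCh38) has an RNase III-like fold and no bacterial counterpart. It was at 0.751, 0.871 and 0.712 normalised CPM in the 3 wells at 10000 nM, against 23.5 to 39.3 in DMSO (median 29.5). The treated wells lay far below every DMSO well, at a log2 fold change of -5.32 (SE 0.19, adjusted p = 1.25e-17). MRPS31 (ENSG00000102738, chr13:40729128-40771190, minus strand), a small subunit protein without bacterial counterpart, was at 0.909, 0.690 and 0.871, against 4.62 to 12.1 (median 8.89), again without overlap (log2 fold change -3.42, SE 0.27, adjusted p = 3.37e-11). The value of MRPS31 is uncertain, since 4 pseudogene entries of its name held 30.8% of the counts given to the gene and these entries together, and the estimation could split reads between them.

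MRPL36, the counterpart of the small bacterial protein bL36, was at 3.68, 3.05 and 3.25 normalised CPM against 7.01 to 26.6 (median 22.8; log2 fold change -2.79, SE 0.19, adjusted p = 1.38e-12). MRPS30 was at 5.10, 5.26 and 5.62 against 27.7 to 46.0 (median 32.7; -2.75, SE 0.15, adjusted p = 3.94e-14). MRPS2, of the small subunit and with a bacterial counterpart, was at 13.2, 12.6 and 14.96 against 66.6 to 105 (median 88.8; -2.74, SE 0.15, adjusted p = 1.89e-14). In none of these genes did treated and DMSO wells overlap. MRPL34 (ENSG00000130312, chr19:17292609-17306843, plus strand), the counterpart of bacterial bL34, was at 3.52, 2.87 and 3.80 against 14.8 to 24.5 (median 21.0; -2.62, SE 0.18, adjusted p = 2.73e-12), also without overlap.

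The largest rises were all in large subunit genes and were smaller. MRPL33 (ENSG00000243147, chr2:27771717-27988087, plus strand), the counterpart of bacterial bL33, was at 115, 123 and 103 normalised CPM, against 15.8 to 60.9 in DMSO (median 39.9), above every DMSO well (log2 fold change 1.44, SE 0.16, adjusted p = 2.78e-08). MRPL23, which lies at the exit of the peptide tunnel, was at 64.4, 69.6 and 76.9 against 18.3 to 41.3 (median 27.6; 1.27, SE 0.16, adjusted p = 8.52e-08). MRPL24 was at 144, 151 and 173 against 49.0 to 82.4 (median 65.9; 1.18, SE 0.11, adjusted p = 1.65e-09). All 3 genes stood above the DMSO range. MRPL11, at the base of the stalk that recruits translation factors, was at 161, 175 and 198 against 50.8 to 102 (median 81.9; 1.09, SE 0.13, adjusted p = 3.77e-08). MRPL42 rose by 1.06 on the log2 scale and MRPL48 by 1.005, and both also lay above all DMSO wells. All 6 rises turned to falls when libraries were scaled to the mitochondrially encoded mRNAs, and that of MRPL42 had an adjusted p of 0.12 with library sizes alone.

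Neither subunit nor origin set these changes apart. In the large subunit 24 of 51 members were lower and 14 higher (median log2 fold change -0.21). In the small subunit 13 of 26 were lower and 7 higher (median -0.35). Among members with a bacterial counterpart 21 of 46 were lower and 14 higher, and among those without 14 of 30 were lower and 7 higher. The 3 MRPS18 paralogs fell together: MRPS18B changed by -1.52 (SE 0.10), MRPS18A by -1.50 (SE 0.16) and MRPS18C by -0.87 (SE 0.13), and MRPS18C alone overlapped the DMSO wells, through the shallow replicate 10 (15.8 normalised CPM; the next lowest was 19.6). MRPS36 did not pass the test (0.36, SE 0.23, adjusted p = 0.16), but did with DESeq2 (0.54, adjusted p = 0.026), with a replicate block (0.73) and with the GC slope as a covariate (0.64).

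The divergent pair parted. MRPL46 was at 7.19, 7.26 and 7.76 normalised CPM against 26.3 to 41.3 in DMSO (median 34.8), a log2 fold change of -2.24 (SE 0.12, adjusted p = 3.37e-14). MRPS11, which starts 63 bp away on the other strand, was at 55.7, 52.1 and 59.6 against 19.3 to 63.6 (median 51.6; 0.08, SE 0.15, adjusted p = 0.65). Over the 34 lower members with a promoter sequence, 11 held CCGGAAG and 9 held AAGATGGCG, and over the 20 higher members 10 and 4 did. Several named genes share sequence on the genome with a coding gene on the other strand (MRPL11 with PELI3, MRPS2 with PIERCE1, MRPL34 with ABHD8, MRPS18A with RSPH9, MRPS34 with EME2, and MRPL33 with RBKS, beside an overlap with BABAM2 on its own strand). In the divergent pair, MRPL46 overlaps the coding gene ENSG00000173867 on its own strand, and MRPS11 overlaps that gene on the other strand. Among all members, 26 overlap a coding gene on the other strand and 13 overlap one on their own. MRPL14, MRPL51, MRPS18B and MRPS18C are among the 26, and MRPS24 is among the 13. Whether strand was used in counting is not given in the sources used here, so reads from such partners cannot be told apart.

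**Figure D3:**
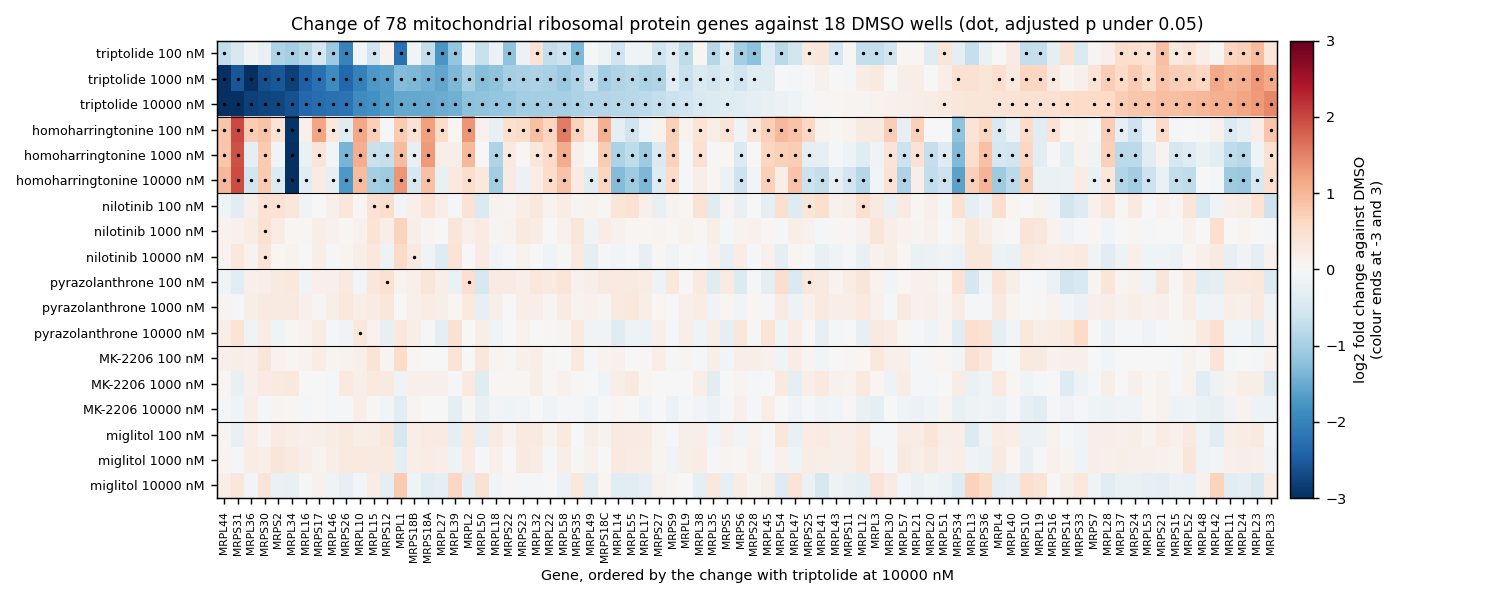
Log2 fold change against the 18 DMSO wells of each of the 78 genes (columns, ordered by triptolide at 10000 nM) for each compound and dose (rows); the colour scale ends at -3 and 3 and dots mark an adjusted p under 0.05. Triptolide runs from blue at MRPL44 to red at MRPL33, homoharringtonine shows red in many of the columns that are blue with triptolide, and nilotinib, pyrazolanthrone, MK-2206 and miglitol are pale, with 13 dots in all.

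Members differed in how much of their fall was present at the lowest dose. At 100 nM of triptolide, 31 members (39.7%) were lower and 12 (15.4%) higher, against 32.3% and 24.5% of 18503 genes, and without the libraries under 10000000 counts the calls were 30 and 12. At 1000 nM, 40 (51.3%) were lower and 20 (25.6%) higher, against 38.6% and 28.8% of 18589 genes. At all 3 doses, 21 members (26.9%) were lower and 9 of 78 were higher, against 22.7% and 15.4% of the 18318 genes tested at each dose. A further 16 (20.5%) were lower at 1000 nM and 10000 nM but not at 100 nM, against 13.4% of these genes. The doses share the same DMSO wells.

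MRPL44 was called at all 3 doses, with most of its fall beyond 100 nM. It was at 19.2, 0 and 18.1 normalised CPM at 100 nM and at 0.643, 1.05 and 1.31 at 1000 nM (log2 fold changes -0.73 and -4.80). The 0 came from the library of 70767 counts, where 3 counts, the limit that a count of 0 allows, stand for 42.4 CPM before normalisation, so that this well cannot show a fall of this gene. MRPS30 was at 30.4, 0 and 31.3 at 100 nM, with the same limit for the 0, and at 5.15, 4.30 and 6.92 at 1000 nM. The first of these groups overlapped the DMSO wells and the second did not.

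Other members were low in both deeply sequenced wells of the lowest dose. MRPS26, a small subunit protein without bacterial counterpart, was at 10.9, 12.0 and 9.36 normalised CPM at 100 nM, at 7.46, 9.54 and 7.57 at 1000 nM and at 8.18, 9.26 and 10.1 at 10000 nM, against 27.8 to 57.6 in DMSO. Its log2 fold changes were -2.01, -2.36 and -2.22, and 8 wells lay below the DMSO range. The 12.0 came from the library of 70767 counts, where even a count of 0 has a limit of 42.4 CPM before normalisation. This well therefore shows neither a fall nor its absence. MRPL1 changed by -2.24, -1.30 and -1.54 (SE 0.47, 0.42 and 0.35), with 1 well of 1000 nM (9.42 normalised CPM) inside the DMSO range of 6.60 to 25.2. At 100 nM it was at 2.59, 0 and 2.42, and the 0 has the same limit.

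The linear trend over the treated wells, in log2 units per 10-fold step of dose, was falling for 21 members (26.9%) and rising for 2 (2.56%), against 17.8% and 6.93% of 16472 genes. All 21 were lower than DMSO at 10000 nM. The steepest falls were those of MRPL44 (-2.32, SE 0.30, adjusted p = 2.06e-04), MRPS31 (-1.48, SE 0.25, adjusted p = 1.09e-03) and MRPL36 (-1.35, SE 0.32, adjusted p = 8.07e-03). The rises were those of MRPL33 (0.49, SE 0.15, adjusted p = 0.034) and MRPS16 (0.32, SE 0.09, adjusted p = 0.019). MRPL1 (0.26, SE 0.30, adjusted p = 0.55) and MRPS26 (-0.14, SE 0.14, adjusted p = 0.49) did not pass the test. The count of 23 rested in part on 2 wells of 100 nM: without replicate 1 it was 14, without replicate 3 it was 11, and MRPL36 did not pass without either of them (adjusted p = 0.054 and 0.052). MRPL33 did not pass without any 1 of the 3 wells of 100 nM or of replicates 1 or 2 of 10000 nM (adjusted p from 0.055 to 0.20), and MRPS16 did not without replicate 3 of 100 nM (0.14).

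**Figure D4:**
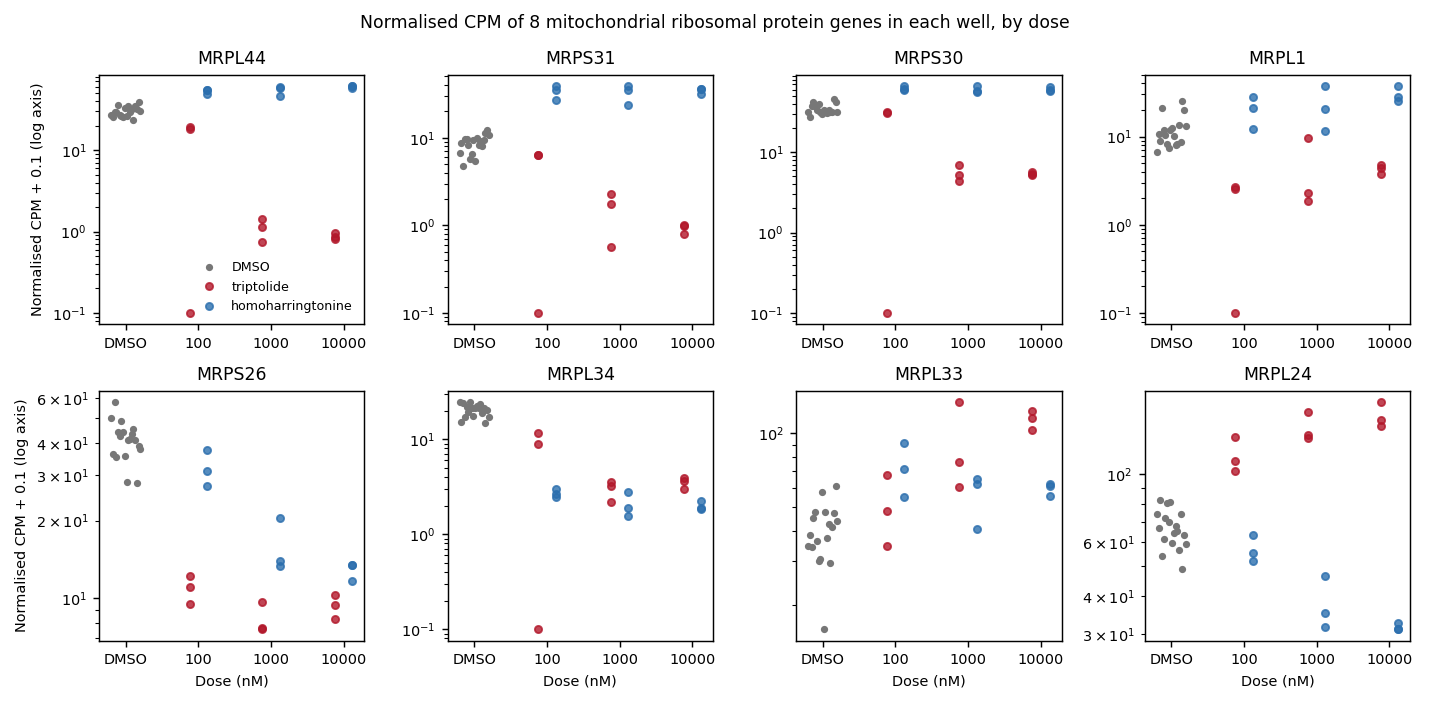
Normalised CPM plus 0.1 on a log axis in each well for 8 genes in DMSO (grey) and at 100, 1000 and 10000 nM of triptolide (red) and homoharringtonine (blue). MRPL44, MRPS31 and MRPS30 drop with triptolide between 100 nM and 1000 nM, MRPL1 and MRPS26 are low at 100 nM in the 2 deeply sequenced wells, MRPL34 is low with both compounds, and MRPL33 and MRPL24 lie above DMSO with triptolide at 10000 nM; the lowest red points at 100 nM are zeros of the library of 70767 counts.

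Homoharringtonine raised many members at the lowest dose and lowered more at the highest. At 100 nM, 37 members (47.4%) were higher and 8 (10.3%) lower, against 31.1% and 32.3% of 18848 genes, and the median log2 fold change was 0.27 for the members and -0.03 for all genes. At 1000 nM, 24 (30.8%) were higher and 24 lower, against 35% and 33.4% of 19190 genes. At 10000 nM, 19 (24.4%) were higher and 36 (46.2%) lower, against 36.7% and 37.2% of 19329 genes, with medians of -0.20 and -0.05. On the scale of the mitochondrially encoded mRNAs, 10 members were higher and 33 lower at 10000 nM. The signs of the medians at 100 nM and 10000 nM held under every scaling tried. With library sizes alone the counts at 100 nM were 27 higher and 18 lower. Falls of more than 2-fold at 10000 nM were called for 13 members (16.7%), against 23.4% of all genes, and rises of that size for 3 (3.85%), against 23.6%.

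The trend over dose was falling for 44 members (56.4%) and rising for 0, against 22.9% and 21.1% of 18315 genes. No member was called rising by DESeq2 either, and 49 had an unadjusted p under 0.05 in edgeR's test, in either direction. The share of all genes at that unadjusted threshold is not given here. The median trend of the members was -0.25 log2 units per 10-fold step of dose and that of all genes was 0.01. Across the members, the trend had a Spearman's rho of -0.57 (Pearson's r -0.53) with GC content. No trend was fitted with base composition as a covariate, so its part in these falls was not tested. The steepest were MRPL15 (-0.89, SE 0.11, adjusted p = 1.23e-04), MRPS26 (-0.69, SE 0.11, adjusted p = 6.13e-04) and MRPL36 (-0.67, SE 0.10, adjusted p = 4.64e-04). MRPL15, a large subunit protein with a bacterial counterpart, was at 109, 103 and 94.3 normalised CPM at 100 nM, above every DMSO well (24.5 to 80.2), and at 30.7, 29.5 and 33.1 at 10000 nM. The 24.5 came from the shallow DMSO replicate 10, and the other DMSO wells, from 50.7 up, all lay above the wells of 10000 nM. In all, 6 members (7.69%) were higher at 100 nM and lower at 10000 nM, against 2.25% of the 18740 genes tested at both doses, which share the DMSO wells: MRPL15, MRPL36, MRPL46, MRPS2, MRPS18B and MRPS25.

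The largest fall at 10000 nM was that of MRPL34, at 2.15, 1.76 and 1.81 normalised CPM against 14.8 to 24.5 in DMSO (median 21.0; log2 fold change -3.43, SE 0.17, adjusted p = 1.02e-14). It was nearly as low at 100 nM (2.38, 2.53 and 2.89; -2.94, SE 0.18), and no treated well reached the DMSO range at any dose. MRPS26 was at 13.4, 13.3 and 11.6 (-1.73, SE 0.16, adjusted p = 7.71e-10), and MRPS34 of the small subunit at 41.1, 41.7 and 40.4 against 83.6 to 173 (median 120; -1.60, SE 0.17, adjusted p = 8.12e-09). Both were below every DMSO well. MRPL17 (-1.35, SE 0.13), MRPL14, which faces the small subunit (-1.31, SE 0.16), and MRPL24 (-1.11, SE 0.13) followed, also without overlap.

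The largest rise was that of MRPS31, at 31.7, 35.5 and 35.5 normalised CPM against 4.62 to 12.1 in DMSO (median 8.89; 1.97, SE 0.16, adjusted p = 1.20e-10), with the same doubt over pseudogene reads. It was as high at 100 nM (38.9, 35.3 and 26.7). MRPL1 was at 28.1, 25.5 and 37.4 against 6.60 to 25.2 (median 10.4; 1.32, SE 0.28, adjusted p = 1.62e-04), and MRPS36 at 23.3, 23.4 and 27.4 against 5.79 to 18.7 (median 11.9; 1.01, SE 0.21, adjusted p = 1.83e-04). In each of these genes the treated wells lay above the DMSO range. MRPL44 was at 61.6, 61.0 and 58.7 (0.97, SE 0.11, adjusted p = 1.56e-08), and MRPL10, which anchors the stalk proteins, at 176, 175 and 168 against 64.8 to 99.5 (median 90.8; 0.94, SE 0.09, adjusted p = 2.86e-09). MRPS18A (0.88, SE 0.13), MRPS30 (0.79, SE 0.11) and MRPS18C (0.63, SE 0.11) also rose above all DMSO wells, whereas MRPS18B fell by 0.48 (SE 0.09) on the log2 scale, below all of them. MRPS18A and MRPS18C did not pass when libraries were scaled to the mitochondrially encoded mRNAs (adjusted p = 0.090 and 0.22).

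Base composition moved with these changes. The median GC slope, defined next, was -0.28, -0.34 and -0.45 in the homoharringtonine wells at 100, 1000 and 10000 nM. A GC slope per well, the step in log2 level for each 10 points of GC percentage across genes, was -0.59 to -0.44 in the homoharringtonine wells at 10000 nM, below the range of -0.42 to 0.27 in DMSO, and 0.07 to 0.21 with triptolide at 10000 nM. Across the 78 members, the log2 fold change with homoharringtonine at 10000 nM had a Spearman's rho of -0.58 (Pearson's r -0.54) with GC content, and that with triptolide had 0.05 (0.07), where the genes share the same libraries. With the GC slope as a covariate, 15 members were higher and 40 lower with homoharringtonine at 10000 nM. The slope came from the same expression values, and these wells all lay outside the DMSO range of slopes. This covariate therefore cannot separate base composition from the treatment. With it, MRPL1 (37.64% GC) and MRPS36 (44.42%) had log2 fold changes of 0.27 and 0.21 (adjusted p = 0.22 for both), whereas MRPS31, MRPL44, MRPL10 and MRPS18A still passed.

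Compared directly at 10000 nM, 35 members (44.9%) were higher and 36 (46.2%) lower with triptolide than with homoharringtonine, against 41.4% and 47% of 17679 genes, and the median log2 difference was -0.16 for the members and -0.17 for all genes. MRPL44 was 73.5-fold lower with triptolide (log2 difference -6.20, SE 0.12, adjusted p = 1.48e-11). MRPS31 was 39.6-fold lower (-5.31, SE 0.14, adjusted p = 5.95e-11) and MRPS30 10.9-fold lower (-3.45, SE 0.09, adjusted p = 6.92e-11). In the other direction, MRPL24 was 5.19-fold higher (2.38, SE 0.08, adjusted p = 5.20e-10), MRPL11 4.72-fold higher (2.24, SE 0.09, adjusted p = 1.49e-09) and MRPS34 4.05-fold higher (2.02, SE 0.08, adjusted p = 1.41e-09). The wells of the 2 compounds did not overlap for any of these 6 genes. With library sizes alone, 21 members were higher and 45 lower.

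Set side by side, both compounds at 10000 nM against the same DMSO wells moved 23 members in opposite directions. Of these, 11 were lower with triptolide and higher with homoharringtonine (MRPL1, MRPL2, MRPL10, MRPL22, MRPL44, MRPL58, MRPS9, MRPS18A, MRPS18C, MRPS30 and MRPS31), and 12 were higher with triptolide and lower with homoharringtonine, MRPL11, MRPL24 and MRPS24 among them. Of the 18442 genes tested in both, 17.9% were lower with triptolide and higher with homoharringtonine and 15.8% the reverse, against 14.1% and 15.4% of the members. A further 15 (19.2%, against 13.9% of these genes) were lower with both, with MRPL34 at -2.62 and -3.43 and MRPS26 at -2.22 and -1.73, and 3 (MRPL28, MRPL33 and MRPS10; 3.85%, against 6.8%) were higher with both. At 100 nM, 13 members (16.7%) were higher and 44 (56.4%) lower with triptolide than with homoharringtonine, against 29.7% and 35.8% of 16468 genes. At 1000 nM, 20 (25.6%) were higher and 31 (39.7%) lower, against 27.9% and 38.9% of 17704 genes.

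The other genes of mitochondrial translation were taken as lists. Over all 18536 genes tested with triptolide at 10000 nM, 39.7% were lower and 32.2% higher. With triptolide at 10000 nM, 21 of 28 mitoribosome assembly factors were lower and 5 higher (median log2 fold change -1.58). DDX28, an RNA helicase of large subunit assembly (-6.51, SE 0.29), and MRM3 (-3.85, SE 0.15) and RPUSD4 (-3.54, SE 0.13), which modify the large ribosomal RNA, had the largest falls. Of 20 mitochondrial aminoacyl-tRNA synthetase genes 11 were lower and 5 higher (median -0.44), with the largest falls in MARS2 (-6.49, SE 0.32), PARS2 (-6.07, SE 0.20) and YARS2 (-3.80, SE 0.15). Of 14 mitochondrial transcription and mRNA factors 10 were lower and 2 higher (median -1.13), led by TRMT10C, a subunit of mitochondrial RNase P (-5.40, SE 0.36). Of 13 translation factors 4 were lower and 3 higher (median -0.11), led by TACO1 (-2.84, SE 0.14), and the median was 0.06 with DESeq2. The 5 mitoribosomal proteins with other symbols had 3 higher and 0 lower (median 0.38), led by DAP3 (0.58, SE 0.10), but 0 higher and 2 lower with library sizes alone. By comparison, 81 of 86 tested cytosolic ribosomal protein genes and 13 of 13 mitochondrially encoded mRNAs were higher (medians 1.02 and 2.76). When scaled to the latter, all 86 cytosolic ribosomal protein genes were lower.

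Of 9 factors that act on nuclear genes of mitochondria, 8 were lower with triptolide at 10000 nM and 0 were higher (median -3.62). Among all genes, 39.7% were lower and 32.2% higher. The largest falls were those of MYC (-5.86, SE 0.16), PPRC1, a coactivator (-4.72, SE 0.16), and PPARGC1B (-4.43, SE 0.16). NRF1 and YY1, named for the motifs above, changed by -3.84 (SE 0.13) and -0.44 (SE 0.09). The NRF1 motif was in 1 of the 69 promoters, and the CCGGAAG that GABP binds was in 29. GABPA and GABPB1 of GABP were lower with triptolide than with homoharringtonine at 10000 nM (log2 difference -0.95, SE 0.08, and -1.75, SE 0.11). Their changes against DMSO are not given here. With homoharringtonine at 10000 nM, 5 of the 9 factors were higher and 3 lower (median 0.57), against 36.7% and 37.2% of all genes. There PPARGC1B changed by -3.69 (SE 0.15), PPARGC1A by 3.53 (SE 0.17) and MYC by -2.01 (SE 0.12).

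With homoharringtonine at 10000 nM the lists were more mixed. Over all 19329 genes tested, 36.7% were higher and 37.2% lower. Of the 28 assembly factors 11 were higher and 9 lower (median 0.02, which was -0.02 with library sizes alone and -0.26, with 5 higher, on the scale of the mitochondrially encoded mRNAs), with METTL15, a methyltransferase of the small ribosomal RNA, at 1.60 (SE 0.14). Of the 20 synthetase genes 9 were higher and 5 lower (median 0.20, which was -0.08, with 6 higher, under that last scaling), with RARS2 at 1.91 (SE 0.19). Of the 14 transcription and mRNA factors 9 were higher and 3 lower (median 0.90), with the RNA helicase SUPV3L1 at 1.95 (SE 0.11) and LRPPRC at 1.70 (SE 0.23). Of the 13 translation factors 6 were higher and 5 lower (median 0.33), with the release factor MTRF1L at 1.97 (SE 0.12). Among the 5 mitoribosomal proteins with other symbols, PTCD3 rose (1.98, SE 0.19) and 3 fell. Of 86 cytosolic ribosomal protein genes 52 were lower and 4 higher (median -0.41), and of the 13 mitochondrially encoded mRNAs 1 was higher and 1 lower (median 0.16). Markers moved as well: of 9 tested osteosarcoma and mesenchymal markers 7 were higher and 1 lower with triptolide at 10000 nM and 0 were higher and 7 lower with homoharringtonine, and of the markers of other cell types 3 of 5 tested were higher with triptolide, and 3 of 6 higher and 1 lower with homoharringtonine. Their part in the changes of the members was not tested.

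The other 4 compounds gave few calls among the members. Nilotinib raised 6 at 100 nM, 1 at 1000 nM and 2 at 10000 nM and lowered 0, against 5.5%, 2.51% and 7.97% of all genes higher and 3.58%, 1.44% and 6.39% lower. At 10000 nM, MRPS30 was at 49.2, 47.3 and 39.3 normalised CPM against 27.7 to 46.0 in DMSO (median 32.7; log2 fold change 0.39, SE 0.11, adjusted p = 0.020). MRPS18B was at 125, 133 and 145 against 95.3 to 128 (median 114; 0.27, SE 0.09, adjusted p = 0.041). The wells overlapped DMSO in both, and neither call held without replicate 1 (adjusted p = 0.17 and 0.061) or replicate 2 (0.14 for both). That of MRPS18B did not hold without replicate 3 either (0.29). MRPS30 was called at all 3 nilotinib doses, with log2 fold changes of 0.44, 0.45 and 0.39. At 100 nM, the 6 calls became 31 without replicate 1 (22 higher and 9 lower) and 0 without replicate 2 or without replicate 3. The single call at 1000 nM was lost without replicate 1 or 3.

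Pyrazolanthrone raised 3 members at 100 nM, 0 at 1000 nM and 1 at 10000 nM and lowered 0, against 3.2%, 0% and 3.35% of all genes higher and 1.56%, 0% and 4.3% lower. The 1 at 10000 nM was MRPL10, at 106, 118 and 117 normalised CPM against 64.8 to 99.5 in DMSO (median 90.8; 0.33, SE 0.10, adjusted p = 0.041), above all DMSO wells. It was not called with any 1 of the 3 wells left out (adjusted p from 0.099 to 0.23). At 100 nM the 3 calls became 11 without replicate 1 and 0 without replicate 2 or 3.

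MK-2206 and miglitol gave 0 calls at each dose in edgeR's test, and DESeq2 gave 0 as well. All genes called were 0.0648%, 1.52% and 3.15% with MK-2206 by rising dose and 0% with miglitol. An unadjusted p under 0.05 was reached by 2, 4 and 0 members with MK-2206 and by 14, 13 and 26 with miglitol. For pyrazolanthrone at 1000 nM it was 4, with 0 calls by DESeq2. The share of all genes at this unadjusted threshold is not given here, so these counts do not show anything particular to the members. The members' log2 fold changes ran from -0.38 to 0.56 with MK-2206 and from -0.50 to 0.78 with miglitol.

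In these weak treatments the members sorted by GC content. Spearman's rho between log2 fold change and GC content over the 78 genes was 0.77, 0.73 and -0.87 with miglitol at 100, 1000 and 10000 nM, and 0.58, 0.78 and -0.72 with pyrazolanthrone. With nilotinib it was 0.69, -0.40 and -0.61, and with MK-2206 -0.69, 0.73 and 0.22. The sign of rho was that of the difference in median GC slope from DMSO (median -0.01): the median slope of the miglitol wells was 0.08, 0.16 and -0.29, that of pyrazolanthrone 0.11, 0.22 and -0.22, that of nilotinib 0.24, -0.29 and -0.19 and that of MK-2206 -0.29, 0.27 and 0.07. All members lie in the same libraries and against the same DMSO wells. The slopes come from the same counts as the fold changes, so this match of signs was nearly fixed in advance.

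**Figure D5:**
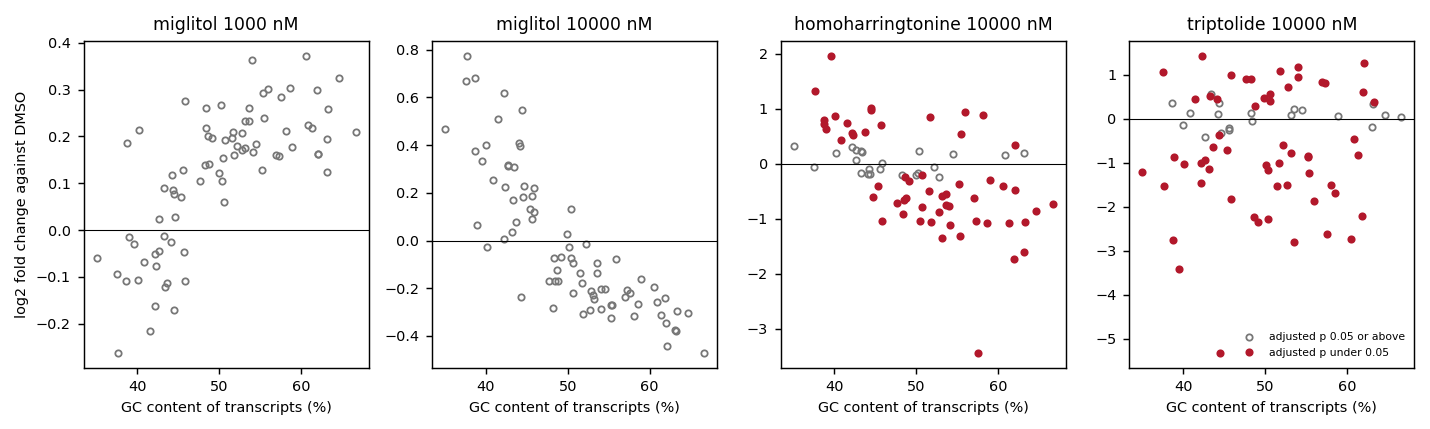
Log2 fold change against DMSO (y axes differ in range) by GC content of transcripts for the 78 genes in 4 treatments; filled points have an adjusted p under 0.05. Points rise with GC content for miglitol at 1000 nM and fall for miglitol at 10000 nM, where none is called; with homoharringtonine at 10000 nM they fall over a wider range, and with triptolide at 10000 nM they show no slope (Spearman's rho 0.05).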

How the data were processed

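The data cover 72 wells of U2OS cells, of which 18 received DMSO and 54 a compound. The authors made TruSeq libraries and ran RSEM. The labels name RSEM, HTSeq and DESeq2 without versions, and build GRCh38. RSEM's expected counts were deposited without normalization, some with decimals. The deposited TPM values came out of the same RSEM run, adjusted for length and library, and the deposited FPKM values for length and mapped reads. The deposited files also hold gene lengths, which were not printed as values (unit other). Depth was the sum of expected counts, from 70767 to 68296300. At the highest depth a gene's precision is set by wells, at the lowest by counting, and the limit given for a count of 0 covers counting error only.

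Symbols and positions came from GENCODE 44 for 56104 of 60371 identifiers. After rounding, edgeR 4.0.16 under R 4.3.3 was used for tests across all genes (TMM, filterByExpr with its minimum count of 10, glmQLFTest). The labels give the middle dose as 1000 nM, which was used. The study's results text gives the same dose for triptolide and homoharringtonine, and its methods text gives 1 nM. Every treatment was set against the 18 DMSO wells. Triptolide was set against homoharringtonine dose by dose, and a straight line on log10 dose was fitted to the treated wells of each. Calls needed an adjusted p under 0.05, and where stated a log2 fold change beyond 1. Descriptive tables were made with pandas 2.3.3. Alternatives were DESeq2 1.42.0, library sizes without TMM, no filter, a replicate block, each well left out, no libraries under 10000000 counts, scaling to the 13 mitochondrially encoded mRNAs, a GC slope covariate and, for levels, FPKM. Against DMSO, the replicate block kept only DMSO replicates 1 to 3. The scripts were tested on simulated data.

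The members and the lists were chosen with earlier results of these data known. Named were the 4 highest and 4 lowest members in DMSO; the 6 largest rises and falls past the threshold with triptolide and homoharringtonine at 10000 nM, and 2 for the other compounds, with all wells on 1 side of the DMSO mean; the 3 largest differences each way between these 2 compounds; the 3 steepest trends each way; MRPS30, MRPS36 and the MRPS18 paralogs; and up to 3 genes of a list. Others, such as MRPL46, MRPS11, NRF1, YY1, GABPA and GABPB1, were named after their values were seen.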

Additional observations from a re-analysis of the deposited data

How the results depend on the processing

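The sign of some called changes turned with the setting. Scaling to the 13 mitochondrially encoded mRNAs, whose own share rose with triptolide, turned 12 of 43, 20 of 60 and 21 of 58 called members at 100, 1000 and 10000 nM of triptolide. Library sizes alone turned 2, 3 and 7 of them, and the replicate block turned 3 at 100 nM. The GC slope as a covariate turned 5 of 55 at 10000 nM of homoharringtonine. The other alternatives turned no called member of these compounds against DMSO. Scaled to the mitochondrially encoded mRNAs, the log2 fold changes with triptolide at 10000 nM were -1.30 for MRPL33, -1.57 for MRPL23, -1.64 for MRPL24, -1.72 for MRPL11, -1.62 for MRPL42, -1.73 for MRPL48 and -2.37 for MRPS36, and the members called were 76 at 100 nM of triptolide and 25 and 27 at 100 nM and 1000 nM of homoharringtonine. With library sizes alone the split was 4 higher and 50 lower at 100 nM of triptolide and 7 and 48 at 1000 nM. The trend with triptolide called from 11 to 33 members with 1 well left out.

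The few calls with weak compounds depended on the settings. For nilotinib at 100 nM they were 10 with DESeq2, 1 with library sizes alone, 1 without the filter, 0 with the replicate block, 16 with the GC slope as a covariate and 0 to 31 with a well left out. At 1000 nM they were 2 with DESeq2, 0 with library sizes, 0 with the block, 2 without the shallow libraries, 13 with the GC slope and 0 to 1 with a well left out. At 10000 nM they were 5 with DESeq2, 0 without the filter, 24 with the block, 4 without the shallow libraries, 4 with the GC slope and 0 to 1 with a well left out. For pyrazolanthrone at 100 nM they were 8 with DESeq2, 1 with library sizes, 0 without the filter, 0 with the block, 5 without the shallow libraries, 13 with the GC slope and 0 to 11 with a well left out. At 10000 nM they were 2 with DESeq2, 2 with library sizes, 0 without the filter, 26 with the block, 2 without the shallow libraries and 0 with any well left out. The GC slope gave 1 and 6 calls for MK-2206 at 1000 nM and 10000 nM and 1 for miglitol at 1000 nM, and the block gave 54 for miglitol at 10000 nM. The GC slope was added for these 4 compounds after seeing the data. The cause of these differences was not tested.

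Treated wells and the DMSO well of the same replicate number (1 to 3) did not deviate together on average. The mean correlation was -0.06 (from -0.87 to 0.85, with 18 of 54 pairs over 0.1), and 0.03 for other numbers. The other DMSO wells were not compared, so a pairing with them could not be seen. The median member level was 61.6 in FPKM and 84.0 in TPM. Depth limits the library of 70767 counts, where 3 counts stand for 42.4 CPM.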
